A study of Arabidopsis thaliana with 4 samples.

Results

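Seedlings of 2 CESTA mutant lines of Arabidopsis thaliana were compared with each other, with 2 arrays for the knockout made by T-DNA insertion and 1 array for the enhancer trap. These are 3 of the 4 arrays of the study, and they were chosen by their labels alone. The array left over is the Columbia-0 wild type, which took no part in the contrast and is given beside it for reference. The labels list the Col-0 background for every array and give the genetic change as "T-DNA (gene knockout)" in the knockout line and "enhancer trap (gene knockout)" in the other. All seedlings were 14 days old, taken as whole plants, and had been raised after 2 days of cold at 24 °C in long days, with 16 h of light followed by 8 h in the dark. An enhancer trap is an inserted construct that can report, or alter, the activity of a gene near its insertion site. The labels do not say where the insertions lie, how many lines or plants stand behind an array, or if the knockout replicates were grown separately. The p-values below therefore measure only the spread between the 2 knockout arrays, which may be technical, and the enhancer trap has no replicate.

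The product of CESTA (CES) is a transcription factor with a helix-loop-helix domain that takes part in brassinosteroid responses. Brassinosteroids are steroid hormones that plant cells sense with receptor kinases at their surface, and the signal passes to transcription factors that set growth, cell wall loosening and the balance with other hormones. Auxin and gibberellin act on many of the same growth genes, and the early auxin genes include the Aux/IAA repressors and the GH3 enzymes, which join auxin to amino acids.

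The arrays were alike in scale, with median signals of 38.5 and 39.0 in the knockout, 39.1 in the enhancer trap and 39.6 in wild type. The ratio of the 3′ to the 5′ probe set of GAPDH, a sign of RNA integrity or labelling, was 1.86 and 2.01 in the knockout arrays, 1.38 in the enhancer trap and 1.70 in wild type. The same ratio for actin was 3.12 and 2.04 in the knockout arrays, 2.55 in the enhancer trap and 2.49 in wild type. The enhancer trap thus lay outside the knockout arrays for GAPDH and between them for actin. The part of these ratios in the results below was not tested. Leaf and root genes were bright on every array of the contrast, as whole plants would give: Rubisco activase (RCA), which keeps the carbon-fixing enzyme active, read 6696 and 7749 in the knockout and 6077 in the enhancer trap, and the root beta-glucosidase PYK10 read 3308, 3598 and 4112 in the same order. In whole seedlings, fewer cells of a type and less RNA per cell cannot be told apart.

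CES itself separated the lines and went against the gene-knockout tag of the enhancer trap. Its signal was 7.29 and 5.35 in the knockout arrays, 4124 in the enhancer trap and 0.533 in wild type. Only the enhancer-trap array was bright, and the other 3 arrays all lay at or below 7.57, the highest signal that any of 27 bacterial control probe sets gave on the 3 arrays compared. That level is used below as the background floor, and a gene with one side at or under it is given as at least N-fold. The knockout had at least 544.5-fold less CES signal than the enhancer trap, with a log2 difference of -9.15 (SE 0.261, n = 2 against 1 array, adjusted p = 9.8e-06 by limma with Benjamini-Hochberg adjustment). The contrast is thus between a line with CES near background and a line labelled as a knockout in which the CES probe set was very bright, and the knockout label could be checked against the wild type only as a signal under the floor in both. Where the CES probe set lies relative to either insertion is not given in the sources used here.

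The genes beside CES on chromosome 1 were read next. Of the 12 nearest genes with a probe set of their own, 6 on each side, 0 passed the limma test, against 0.75% of all genes with 1 probe set each (100 of 13333). At an unadjusted p under 0.05 there were 2 of these 12, beside 1295 of the 13333 genes (9.71%), and 11 of the 12 were above the floor in both lines. Their log2 differences ran from -1.88 to 0.67 with a median of -0.14, and the lowest adjusted p was 0.194. The immediate neighbours read 82.9 and 73.4 in the knockout against 55.3 in the enhancer trap for AT1G25320, and 12.2 and 12.9 against 8.48 for AT1G25360. The lowest adjusted p belonged to AT1G25400, at 133 and 159 in the knockout and 91.2 in the enhancer trap (log2 difference 0.67), which passes once dim probe sets are left out (adjusted p = 0.0384).

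Across the array, 222 of 22746 probe sets (0.976%) differed between the lines at an adjusted p under 0.05 by limma. The knockout was higher in 151 (0.664%) and lower in 71 (0.312%). The smallest called difference was 0.79 on the log2 scale and the median size was 1.47, with 65 probe sets at least 4-fold apart, 48 of them higher in the knockout and 17 lower. At an unadjusted p under 0.05 there were 2467. The knockout pair supplies the 1 residual degree of freedom of the fit, which assumes that the lone enhancer-trap array varies like that pair. The count moved with the treatment of dim probe sets: 793 of 13648 (5.81%) passed when probe sets under the 40th percentile of mean signal were left out, 3 passed with 16 rather than 1 added to each signal before the log, and 0 passed without the intensity trend in the spread, where 1944 had an unadjusted p under 0.05.

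Size alone separated the lines poorly among dim probe sets and better among bright ones. Both knockout arrays lay at least 2-fold from the enhancer trap, on the same side, in 1390 of 22746 probe sets (6.11%). Taken singly, knockout replicate 1 lay at least 2-fold from it in 2897 and replicate 2 in 3238. The knockout arrays themselves lay at least 2-fold apart in 2743 (12.1%), a count to set beside the single ones, because the 1390 requires 2 arrays to agree. Of the 1390, 964 came from the 5687 probe sets with the lowest mean signal, 688 had both lines within background, and 170 also passed the limma test. In the brighter part of the array, the 11373 probe sets above the median of mean signal, knockout replicate 1 lay at least 2-fold from the enhancer trap in 273 (2.40%) and replicate 2 in 305 (2.68%), against 52 (0.457%) between the knockout replicates. That part held 196 of the 222 called probe sets. The median difference between the knockout arrays was 0.246 on the log2 scale over all probe sets and 0.135 over the called ones, and the largest among the called ones was 0.71; a small spread in the pair helps a probe set to pass, so these latter values follow from the test.

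**Figure D1:**
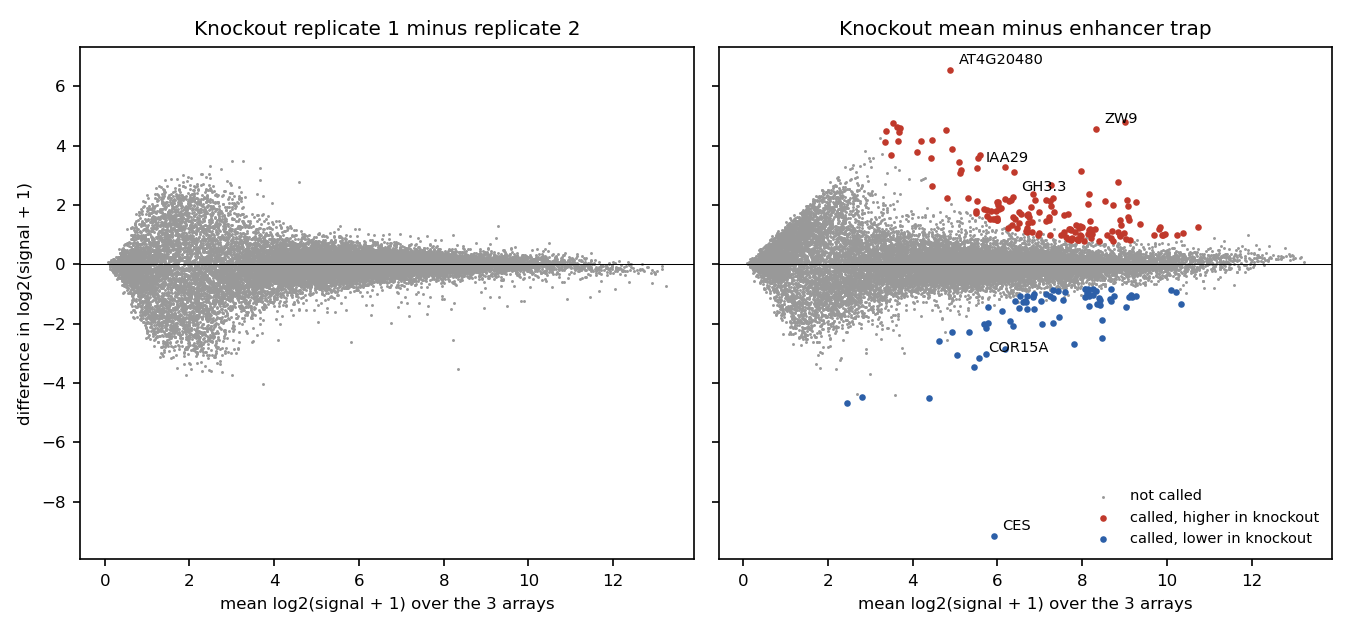
Difference in log2(signal + 1) against mean log2(signal + 1) over the 3 arrays compared, 1 point per probe set: knockout replicate 1 minus replicate 2 on the left, and the knockout mean minus the enhancer trap on the right, with called probe sets in colour. Both clouds widen at low signal, and on the right 151 called points lie above 0 and 71 below, with CES at -9.15.

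Among the genes lower in the knockout, COR15A is given first because it is on the cold-response list. Beside CES, the genes AT1G58025, AT1G14930 and AT4G19430, described further below, had larger log2 differences in this direction. COR15A encodes a chloroplast protein that protects membranes in freezing. Its signal was 25.6 and 18.8 in the knockout, 204 in the enhancer trap and 18.1 in wild type. The 2 knockout arrays and the wild type lay together far below the enhancer trap, and the knockout was 9.30-fold lower (log2 difference -3.16, SE 0.301, adjusted p = 0.00363, limma, n = 2 against 1).

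The cold-response list as a whole had 4 tested members of 18 listed. LTI30, a dehydrin, read 482 and 418 in the knockout and 911 in the enhancer trap, with 396 in wild type. The log2 difference was -1.02 (SE 0.146), with an adjusted p of 0.0208 by limma. COR15B, the close relative of COR15A, read 64.5 and 69.4 against 139, with 47.9 in wild type, a log2 difference of -1.04 that missed the threshold (adjusted p = 0.0580) and passed when dim probe sets were left out (0.00156). The dehydrin COR47 read 1488 and 1454 against 1773, a log2 difference of -0.27 with an adjusted p of 0.633. The list thus gave 2 of 4 members called lower and 0 higher, beside 0.75% of all genes. Its median log2 difference was -1.03, beside 0.01 for all genes. The list was chosen with earlier results of these data known, so these counts are a description and no test. All 4 tested members were brightest in the enhancer trap. Over all genes, 6531 of 13333 were lower in the knockout than in the enhancer trap at any size. Probe sets of the CBF regulators that switch on cold genes were not among those with a listed gene.

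The next genes among the largest differences are described one by one and stand for no list. AT5G62360, an inhibitor-like protein of pectin methylesterases, read 116 and 123 in the knockout, 772 in the enhancer trap and 101 in wild type. It was 6.47-fold lower in the knockout (log2 difference -2.68, SE 0.138, adjusted p = 0.000364). AT1G57590, a pectin acetylesterase, read 38.7 and 38.0 against 105, with the wild type between the lines at 70.6, and was 2.74-fold lower (adjusted p = 0.0482, limma). AT1G48750, of the lipid-transfer protein family, read 249 and 248 against 648, with 224 in wild type, and was 2.61-fold lower (adjusted p = 0.00350). The defence-related CAP protein AT4G33720, akin to PR-1, read 22.8 and 28.5 against 214, with 30.5 in wild type. It was 8.42-fold lower in the knockout (log2 difference -3.02, SE 0.269, adjusted p = 0.00309).

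In 4 further genes of the largest differences the enhancer trap was the highest array, while the wild type lay above both knockout arrays in AT2G26690, GT72B1 and AT3G12710 and below both in AT1G75960. AT2G26690, a member of the nitrate and peptide transporter family (NPF6.2), read 212 and 251 in the knockout, 841 in the enhancer trap and 278 in wild type, a 3.65-fold lower level in the knockout (adjusted p = 0.00190, limma). GT72B1, a glucosyltransferase that adds sugar to phenolic compounds, read 225 and 188 against 542, with 252 in wild type, and was 2.63-fold lower (adjusted p = 0.00712). AT1G75960, an AMP-binding enzyme, read 39.2 and 24.6 against 128, with 19.9 in wild type; the 2 knockout arrays differed here more than for most called genes, and the gene was 4.13-fold lower (log2 difference -2.01, SE 0.327, adjusted p = 0.0382). AT3G12710, a DNA glycosylase family member, was 3.92-fold lower, at 102 and 99.3 against 394 with 124 in wild type.

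The rest of the 14 largest differences in this direction, beside CES, are genes whose roles are less clear or which rest on bounds. AT5G57785 read 181 and 218 in the knockout and 1104 in the enhancer trap, with 202 in wild type, and was 5.55-fold lower. Its neighbour P1R1 read 83.1 and 83.6 against 336, with 83.4 in wild type, so that 3 of the 4 arrays agreed within 1 unit of signal. AT4G19430 read 16.7 and 20.8 against 214, with the wild type at 47.7 between the lines. It was 11.5-fold lower in the knockout (log2 difference -3.46, SE 0.302, adjusted p = 0.00296, limma). AT1G58025 and AT1G14930, the latter of the family of Bet v 1-like proteins, were under the floor in both knockout arrays and read 46.5 and 54.4 in the enhancer trap, at least 6.14-fold and 7.18-fold lower in the knockout (both adjusted p = 0.0332, limma).

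Among the genes higher in the knockout, ZW9 was the one with the lowest adjusted p. ZW9 encodes a protein with a TRAF-like domain, a protein-binding fold. Its signal was 869 and 972 in the knockout, 37.9 in the enhancer trap and 807 in wild type. The enhancer trap alone was low, and the knockout was 24.3-fold higher (log2 difference 4.56, SE 0.139, adjusted p = 1.1e-05, limma). With 16 added to each signal before the log, CES, ZW9 and 1 probe set with no listed gene were the only calls.

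AT4G19500 and AT4G19510 are neighbouring genes of the TIR-NBS-LRR class, intracellular immune receptors that sense pathogen effectors. AT4G19500 read 82.9 and 66.9 in the knockout, 5.96 in the enhancer trap and 81.3 in wild type, a difference of at least 9.84-fold (adjusted p = 0.00552, limma). AT4G19510 read 29.3 and 34.0 against 0.841, with 32.9 in wild type, at least 4.17-fold higher (adjusted p = 0.0236). AT4G19530, another gene of this class and stretch, read 478 and 566 against 58.3, with 456 in wild type (log2 difference 3.14, adjusted p = 0.000305); it fell outside the rule for named genes and was chosen after its values were seen. That the knockout and wild-type arrays lay above the enhancer trap in all 3 genes is not particular to them. In all 222 called probe sets both knockout arrays lay on the same side of the enhancer trap, and the wild type lay beyond the enhancer trap in 0. The class as a whole was not among the lists and was not examined. These 3 genes belong to a family of similar sequences, so probe sets that read related copies are uncertain.

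A further group of genes with the enhancer trap at or near background had the other arrays well above it. AT4G20480 read 132 and 134 in the knockout, 0.438 in the enhancer trap and 145 in wild type, at least 17.5-fold higher in the knockout (log2 difference 6.54, SE 0.374, adjusted p = 0.00067). The glutaredoxin AT4G15660, of a family of small redox proteins, read 61.4 and 52.9 against 2.15, with 75.5 in wild type, at least 7.53-fold higher. AT5G52760, with a heavy-metal-associated domain, read 43.7 and 53.7 against 3.095, with 45.2 in wild type, at least 6.40-fold higher. These 3 genes passed the limma test at adjusted p values of 0.00067, 0.00682 and 0.0146.

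The dimmer members of that group give weaker bounds. AT2G34840, a coatomer subunit of vesicle transport, read 30.9 and 40.1 in the knockout and 0.466 in the enhancer trap, at least 4.65-fold higher. The MADS-box gene AGL87 read 39.6 and 31.0 against 0.651, at least 4.63-fold higher (adjusted p = 0.0168). The pseudogene AT4G08110, with AT4G16880 and AT1G52710, reached at least 3.73-fold, 3.34-fold and 3.32-fold, with enhancer-trap signals of 0.308, 0.521 and 1.05. In all 5 the wild type was also above the floor, between 25.9 and 62.0. Among all 222 called probe sets, the enhancer trap was within background in 19 and the knockout in 4.

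Higher in the knockout with a signal above the floor in both lines were a pseudogene, a transporter and an auxin gene. The pseudogene AT4G16870 read 114 and 109 in the knockout, 7.85 in the enhancer trap and 122 in wild type, 14.2-fold higher in the knockout (adjusted p = 0.00134, limma). AT3G23550, a MATE efflux carrier, read 161 and 148 against 14.9, with 99.7 in wild type, and was 10.3-fold higher (log2 difference 3.28, SE 0.210, adjusted p = 0.000832). Both knockout arrays exceeded the wild type for the carrier, whereas for the pseudogene the wild type was the highest array.

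**Figure D2:**
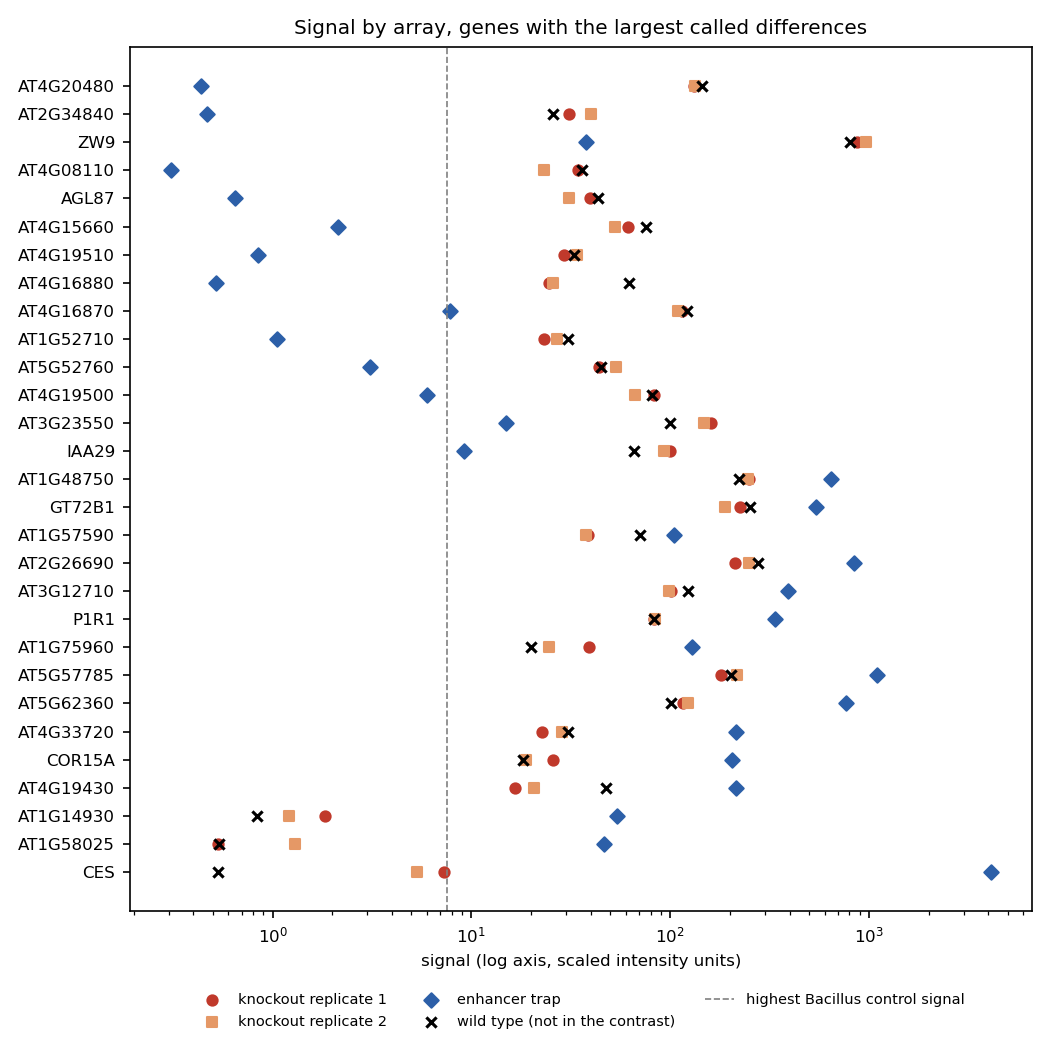
Signal on each array (log axis, scaled intensity units) for CES and the 14 largest called differences in each direction; symbols mark the 2 knockout arrays, the enhancer trap and the wild type, and the dashed line is the highest bacterial control signal, 7.57. The enhancer-trap diamond stands apart in every row, and the wild-type cross lies nearer to the knockout symbols in each row but that of AT1G57590.

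The early auxin list held the called hormone genes. IAA29, an Aux/IAA repressor of auxin-responsive transcription, read 100 and 93.0 in the knockout, 9.24 in the enhancer trap and 66.0 in wild type. The enhancer trap was close to the floor and the knockout 10.4-fold higher (log2 difference 3.25, SE 0.278, adjusted p = 0.00274, limma). GH3.3, which conjugates auxin to amino acids, read 151 and 126 against 27.8, with 86.9 in wild type, and was 4.94-fold higher (log2 difference 2.27, SE 0.208, adjusted p = 0.00350). For both genes the order was the enhancer trap lowest, the wild type next and both knockout arrays highest. WES1, another GH3 enzyme, read 258 and 228 against 128, with 224 in wild type, a log2 difference of 0.92 (adjusted p = 0.0382).

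Of the 5 tested members of the 16 on that list, 3 were called higher and 0 lower, beside 0.75% of all genes. The median log2 difference over all genes was 0.01. Like the cold list, the auxin list was chosen with earlier results of these data known, so its counts are a description and no test. The members that did not pass were dim: SAUR10 (AT2G18010) read 5.90 and 18.1 in the knockout and 3.00 in the enhancer trap, and GH3.1 was within background in both lines. The median of the 5 members, 1.65, is the value of GH3.1 itself and so rests on a probe set with no level above background. Among all Aux/IAA genes by symbol, 1 of 7 was called, and 3 of the others, IAA20, IAA33 and IAA34, were within background in both lines, so no size is given for them. At an unadjusted p under 0.05 by limma there were 3 of the 7, beside 9.71% of all genes. With background members included, 6 of the 7 were higher and 1 lower in the knockout. Among the GH3 genes 2 of 5 were called, with the uncalled GH3.9 at 0.84 and GH3.17 at -0.20. HAT2, a homeodomain factor known as an early auxin gene and in none of the lists, read 403 and 361 against 168, with 325 in wild type (log2 difference 1.18, adjusted p = 0.00961), and was chosen after its values were seen.

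Brassinosteroid genes could be read for few members. BAT1, an acyltransferase that inactivates brassinosteroids, read 133 and 139 in the knockout and 120 in the enhancer trap, with 135 in wild type (log2 difference 0.18, adjusted p = 0.784, limma). BIM1, a helix-loop-helix partner of the pathway's transcription factors, read 142 and 120 against 176, with 112 in wild type (-0.43, adjusted p = 0.407). The receptor gene BRL1 had a difference of 0.26 with an adjusted p of 0.928. None of these 3 passed and 1 of them had an unadjusted p under 0.05, beside 0.75% and 9.71% of all genes. With dim probe sets left out 0 passed. No gene of the list of sterol and brassinosteroid biosynthesis had a probe set with a listed gene of its own.

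Of the gibberellin list, 4 of 23 members were tested. The receptors GID1A, GID1B and GID1C had log2 differences of -0.28, -0.86 and -0.31, and SLY1, which targets growth repressors for destruction, -0.18. GID1B read 57.3 and 73.5 in the knockout, 119 in the enhancer trap and 73.0 in wild type, with an adjusted p of 0.176 over all probe sets and 0.0154 with dim ones left out. By limma 0 of the 4 were called, beside 0.75% of all genes, and 1 had an unadjusted p under 0.05, beside 9.71% of all genes.

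Cell wall and growth genes are textbook outputs of brassinosteroids. Of the 8 tested of 18 listed, 0 were called by limma, beside 0.75% of all genes, and 4 had an unadjusted p under 0.05, beside 9.71%. With dim probe sets left out 2 of the 8 passed, beside 382 of 7212 genes. The median log2 difference of the 8 was -0.17. EXPA8, an expansin that loosens walls, read 302 and 240 in the knockout and 145 in the enhancer trap, with 421 in wild type (0.89, adjusted p = 0.0686 over all probe sets and 0.000798 with dim ones left out). The expansin EXPB3 was at -0.72 (0.0970 and 0.00333), and EXPA7 and EXLA1 were at -0.68 and -0.42 with unadjusted p values of 0.0246 and 0.0232. Over all 18 expansins 0 were called and 6 had an unadjusted p under 0.05, beside 0.75% and 9.71% of all genes. Of these 6, 2 had a higher and 4 a lower level in the knockout. The 2 of these 6 not on the list, chosen after their values were seen, are EXLB1 and EXPA9. EXLB1 had the lowest p of the family and read 68.6 and 74.8 in the knockout and 25.8 in the enhancer trap (log2 difference 1.44, adjusted p = 0.0545 over all probe sets and 0.000228 with dim ones left out). EXPA9 was at -0.67 (unadjusted p = 0.0186). Xyloglucan endotransglucosylases cut and rejoin wall polymers. Beside the same shares of all genes, 0 of 9 were called and 3 had an unadjusted p under 0.05. Of these, chosen after their values were seen, XTH33 read 114 and 128 against 62.8 (0.93, adjusted p = 0.0740) and XTH32 144 and 174 against 248 (-0.64, adjusted p = 0.169).

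The jasmonate, flavonoid and rapid stress lists gave 0 calls by limma among 2, 3 and 2 tested members, beside 0.75% of all genes. At an unadjusted p under 0.05 there were 1, 1 and 0, beside 9.71% of all genes. With so few members, nothing particular to these lists is read from the counts. PDF1.2, a jasmonate-responsive defensin, read 69.7 and 51.9 in the knockout, 19.5 in the enhancer trap and 69.1 in wild type, a log2 difference of 1.57 with an adjusted p of 0.0811 over all probe sets and 0.000236 with dim ones left out. The thionin THI2.1 of the same list read 10.0 and 17.0 against 4.64, within background in the enhancer trap, with an adjusted p of 0.563. DFR, an enzyme of anthocyanin synthesis, read 13.3 and 27.3 in the knockout and 54.5 in the enhancer trap, with 15.7 in wild type. Its log2 difference was -1.46, with adjusted p values by limma of 0.316 and 0.00710 in the 2 fits. The knockout arrays themselves lay 0.98 apart on the log2 scale. The zinc-finger gene STZ, of the rapid stress list, read 156 and 337 in the 2 knockout arrays and 160 in the enhancer trap, so that the replicates differed more than the lines.

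Most other lists held 1 to 3 tested members close to the middle of the array. LHCB4.1 and LHCB4.2, antenna proteins of photosystem II, and RCA had log2 differences of 0.21, 0.15 and 0.25, the clock gene GI -0.30, the glucosinolate enzyme BCAT4 0.34, PYK10 -0.25 and the flowering regulator AGL24 -0.21. The reference genes PEX4, AT2G28390 and AT4G34270 had -0.21, -0.05 and -0.40. None of these 10 genes passed the limma test, and 1 of them, BCAT4, had an unadjusted p under 0.05, beside 0.75% and 9.71% of all genes. Of the 24 lists, 16 had a tested member, and 42 of their 271 entries were tested, which leaves most of each pathway unread here.

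**Figure D3:**
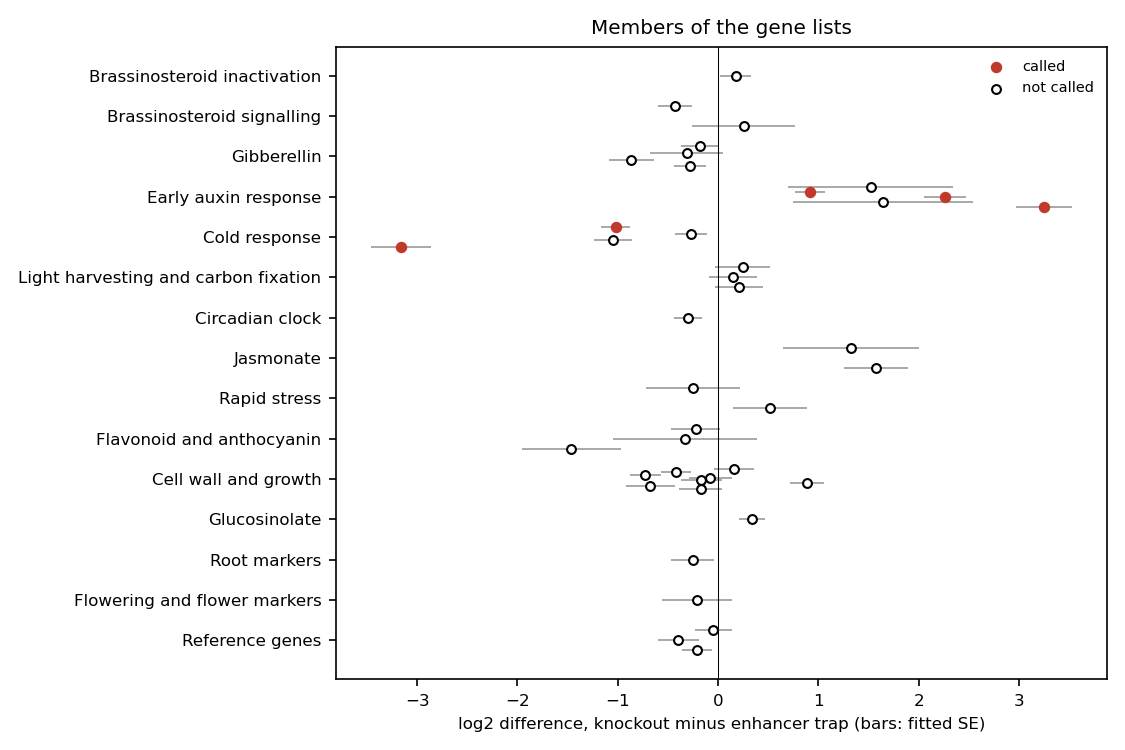
Log2 difference of each tested list member (knockout minus enhancer trap, bars for the fitted SE), 1 row per list, with called members filled. The filled points lie in the early auxin row, at 0.92, 2.27 and 3.25, and in the cold row, at -1.02 and -3.16; the row of CES is left out.

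Large families set by gene symbol are given beside the shares over all genes, 0.75% called and 9.71% at an unadjusted p under 0.05. By limma, 0 of 20 beta-glucosidases, 0 of 14 glutathione transferases, 0 of 47 UDP-glycosyltransferases with UGT symbols and 0 of 23 cytochromes P450 passed, with 3, 3, 6 and 1 members at an unadjusted p under 0.05, and nothing particular to these families is read from the counts. UGT72B3, a close relative of the called GT72B1, read 18.6 and 13.7 in the knockout and 58.7 in the enhancer trap (log2 difference -1.81, adjusted p = 0.132), and passed with dim probe sets left out (0.000438); it and psbA were chosen after their values were seen. Of 40 MADS-box genes, AGL87 alone was called, and of 8 helix-loop-helix genes, CES alone. Of 69 plastid-encoded genes 0 were called and 3 had an unadjusted p under 0.05. Their median log2 difference was -0.07, with 28 higher and 41 lower in the knockout. The highest value of the 69 was that of psbA, which encodes a core protein of photosystem II, so it does not stand for the family. It read 474 and 819 in the knockout and 334 in the enhancer trap (0.90, adjusted p = 0.266 by limma, and 0.00137 with dim probe sets left out).

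Some other called genes stand for no list and were picked with their values in view. The lectin AT3G16530 read 456 and 448 in the knockout, 110 in the enhancer trap and 419 in wild type (log2 difference 2.02). The thionin AT1G66100 and the lectin AT5G03350 were higher in the knockout by 1.99 and 1.95 on the log2 scale. AT2G25450, an oxygenase that uses oxoglutarate, read 1008 and 980 against 233, with 1065 in wild type (2.09). The peroxidases Prx37 and AT5G58390 were lower in the knockout, at -1.24 and -1.28, and MCCA, of leucine breakdown, was higher at 1.17. In each of the genes given here with its signals, the wild type was within the range of the knockout arrays or closer to it than to the enhancer trap.

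The wild-type array, which the fit did not use, lay on the knockout side for nearly all called probe sets. On a line where the enhancer trap is 0 and the knockout mean is 1 in log2(signal + 1), its median position was 0.95 over the 222 called probe sets, with quartiles of 0.82 and 1.06. It was nearer to the knockout in 213 (95.9%), that is in 145 of the 151 higher in the knockout and in 68 of the 71 lower. It lay between the lines in 138, beyond the knockout in 84 and beyond the enhancer trap in 0. Over all 22746 probe sets the wild type was nearer to the knockout in 13473 (59.2%), with a median position of 0.76.

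These positions are descriptions and carry no test, because the probe sets were chosen by the distance of the lone enhancer-trap array from the knockout pair, and features of that array and features of the line cannot be told apart. The 1390 probe sets at least 2-fold from the enhancer trap in both knockout arrays, chosen without the fitted spread, had the wild type nearer to the knockout in 948 (68.2%). The called genes with the wild type nearer to the enhancer trap were few, 9 probe sets in all, of which 4 have 1 listed gene. AT1G57590 is one of them, and AT5G43190 read 244 and 273 in the knockout, 143 in the enhancer trap and 189 in wild type. AT3G57800 read 187 and 189 against 94.7, with 131 in wild type, and AT1G02660 read 297 and 279 against 158, with 212 in wild type. In all 4 the wild type stood between the lines, and they were chosen after their values were seen.

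**Figure D4:**
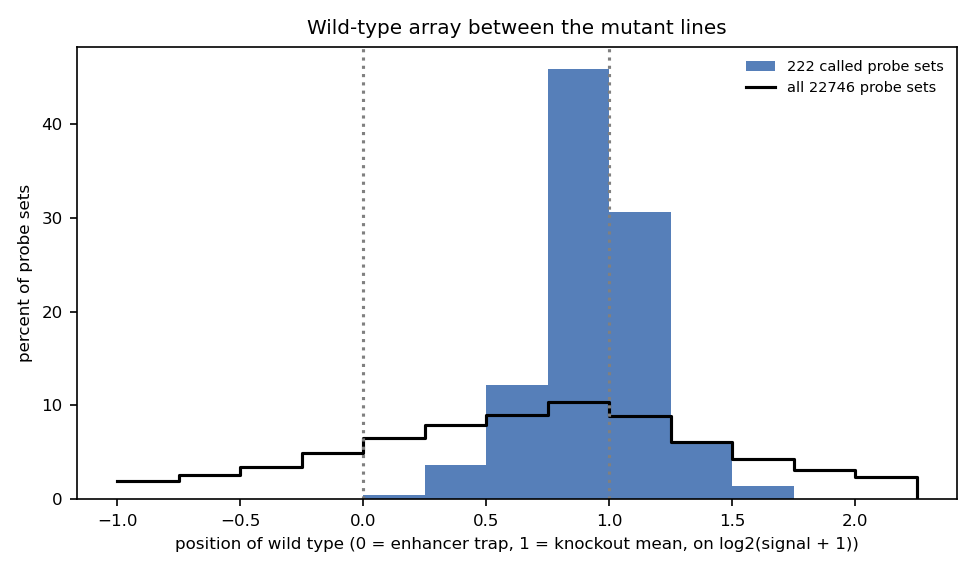
Position of the wild-type array between the lines, with the enhancer trap at 0 and the knockout mean at 1 on the log2(signal + 1) scale, as a percent of the 222 called probe sets (bars) and of all 22746 (line). The called probe sets gather around 1, with quartiles of 0.82 and 1.06, while the line over all probe sets is broad.

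Called genes were spread unevenly over the chromosomes. Of the genes with 1 probe set each, 31 of 1937 on chromosome 4 were called (1.60%, 20 higher in the knockout and 11 lower), against 27 of 3428 on chromosome 1 (0.788%), 15 of 2178 on chromosome 2 (0.689%), 11 of 2730 on chromosome 3 (0.403%) and 16 of 2991 on chromosome 5 (0.535%). Within chromosome 4, the stretch of gene order from AT4G15600 to AT4G20500 held 12 called of 275 tested (4.36%), 11 of them higher in the knockout, beside 0.75% of all genes. It was chosen with that pattern already known, so it gets no test. AT4G19430 was the 1 gene there called lower. Besides those named above, AT4G18970, of the GDSL lipase family, and DI21 were higher in the knockout by 2.23 and 1.88 on the log2 scale. The wild type was on the knockout side for the genes of the stretch given above with its value.

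Called genes also lay side by side in 5 places, each pair with the same direction, which takes in 10 of the 100 called genes. No share over all neighbouring genes was computed, and 67 of the 100 called genes were higher in the knockout. The count is therefore a description, and whether called genes lie together more often than others was not tested. The pairs were AT1G52710 with AT1G52720, AT1G67860 with AT1G67865, AT4G16870 with AT4G16880, AT4G19500 with AT4G19510, and P1R1 with AT5G57785. The last pair was lower in the knockout and the other 4 pairs were higher. Whether neighbouring probe sets share reads of related or overlapping transcripts was not tested.

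**Figure D5:**
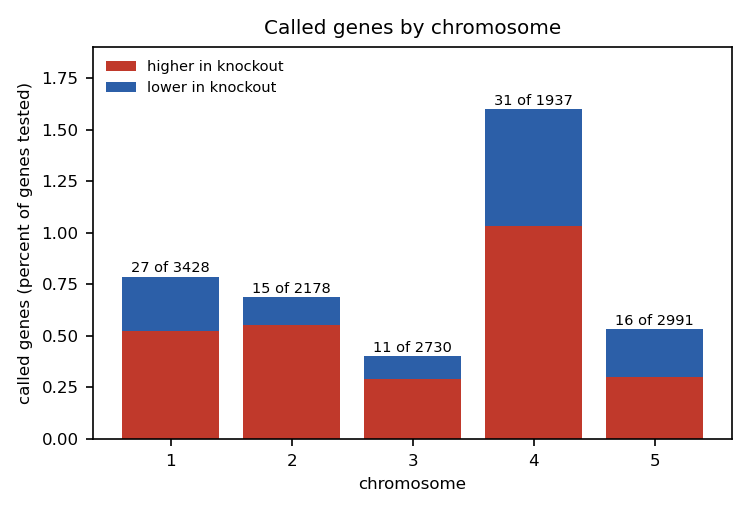
Called genes as a percent of the genes tested on each nuclear chromosome, split into those higher and those lower in the knockout. Chromosome 4 reaches 1.60%, and the other chromosomes lie between 0.403% and 0.788%.

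More than the named genes differed. Of the 222 called probe sets, 112 have no listed gene and 10 have several, so that 122 cannot be named here, and these were 84 higher and 38 lower in the knockout. Their largest log2 differences were 4.80 and -4.51. Of the 100 called genes with 1 gene each, 67 were higher and 33 lower in the knockout, and 98 are protein coding and 2 pseudogenes in the gene table.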

How the data were processed

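The deposited values are signal intensities on a linear scale, 1 per probe set and array, from 1-colour Affymetrix ATH1 arrays; per the submitters' processing notes the authors made these intensities with the programs GCOS and MAS5, whose versions are not given in the sources used here. Each array's mean after trimming 2% at each end was 100, so they were already scaled, and no further normalization was applied. Detection calls were not used here.

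Groups came from the labels. The 64 control probe sets were left out, and log2(signal + 1) of the other 22746 was fitted on the 3 arrays with limma 3.58.1 in R 4.3.3 (lmFit, eBayes with an intensity trend, 6.71 prior degrees of freedom), with two-sided p-values adjusted by Benjamini-Hochberg over all of them. A probe set is called at an adjusted p under 0.05, and precision is limited by the number of arrays. The 1 added before the log shrinks the log2 differences of dim genes. With one side at or under the floor, the log2 difference can still exceed the bound, and only the bound is then a supported size. Fold values are ratios of the geometric mean knockout signal and the enhancer-trap signal, in either order; with one side at or under the floor, the brighter side is divided by the floor. "Dim probe sets left out" means a filter at the 40th percentile of mean log2 signal, with the p-values adjusted again. The fit was also run on simulated arrays drawn from its own fitted spread. Such arrays cannot check whether the enhancer trap varies like the knockout pair.

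Gene names came from the platform annotation: it gives 1 gene for 13513 probe sets, several for 503 and none for 8730. The TAIR10.1 table held 13484 of the 13513, and that table gave the gene order; a gene with several probe sets is represented by the brightest. Named genes were CES, the 14 largest called differences each way, called list members and up to 4 further members per list. The members, lists and the stretch of chromosome 4 were chosen with earlier results of these data known. Promoter and protein sequences, and families defined by product names, were not analysed here. Figures used matplotlib 3.10.9.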

Additional observations from a re-analysis of the deposited data

How the results depend on the processing

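The 222 calls became 3 with 16 added to each signal before the log, 128 with quantile normalization, 146 with median centring, 793 with the 40th-percentile filter, 646 with a 60th-percentile filter and 0 without the intensity trend; a robust prior gave 203 and the wild type in the fit 231. Of the main calls, 206 were also called with the 40th-percentile filter, which left out the other 16 and added 587. The share of calls higher in the knockout fell from 68.0% to 54.0% and 52.6% with the 2 filters. Calls with the wild type nearer to the knockout went from 213 to 3 (16 added), 127 (quantile), 717 and 581 (filters), which is 89.9% to 100% of the calls wherever there were any. The 1390 probe sets at least 2-fold apart in both knockout arrays became 191 with 16 added, 253 and 134 with the filters, and 2897 to 3238 with 1 knockout replicate left out. No called named gene changed direction; among the uncalled ones LHCB4.2 went from 0.15 to -0.08 on the log2 scale with quantile normalization, STZ from 0.52 to -0.03 without knockout replicate 2, and WRKY53, EXPA4 and AT2G28390 from -0.25, -0.17 and -0.05 to 0.01, 0.10 and 0.10 without knockout replicate 1. Of the 32 called named genes, 10 lost the call with quantile normalization, among them WES1, LTI30, AT1G57590, AT1G75960, AT1G58025 and AT1G14930, and 9 with median centring. Leaving out a knockout replicate leaves no residual degrees of freedom, so it gives values and no test. No paired analysis was possible because the groups compared share fewer than 2 replicate numbers. The prior degrees of freedom moved from 6.71 to 38.5 with the 40th-percentile filter and 1.77 without the trend; the causes of the moved counts were not tested. Signals at or under 7.57 limit the folds of 11 called genes in the enhancer trap and 3 in the knockout to bounds.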
